A study of Homo sapiens with 12 samples.

Results

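AGR2-positive cells of a lung carcinoma line part of the way through a TGFβ response were compared with the AGR2-negative cells of the same libraries. The cells were A549, an established human line from a lung carcinoma, given 4 ng/mL TGFβ in growth medium and taken at 12 h and 24 h. Both classes came from the same line, treatment and libraries and were told apart by AGR2. Kept cells of the 12 h and 24 h libraries with at least 12500 unique molecular identifiers (UMIs, 1 per captured mRNA) were thinned at random to 12500, and the members were chosen by their AGR2 UMIs: a cell with at least 1 was called AGR2-positive and a cell with 0 AGR2-negative. There were 377 AGR2-positive and 324 AGR2-negative cells, 701 of the 795 cells kept at these times and of the 1684 thinned cells of the whole series. The series also holds cells before TGFβ (0 h) and at 0.5 h, 48 h and 96 h, each time with 2 CEL-Seq2 libraries of 384 wells, 1 sorted cell negative for propidium iodide per well. There was no later time without TGFβ, and the labels do not say whether the 2 libraries of a time were separate cultures. Each library had its own term in the test. The p-values therefore rest on the spread of the class difference within libraries, largely pooled across genes, which may be technical. A low p is not a measure of agreement between cultures.

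AGR2 is a protein disulfide isomerase of the endoplasmic reticulum that is made by secretory epithelial cells and is known for its part in folding mucins and other secreted proteins. TGFβ acts through SMAD proteins and drives the epithelial-to-mesenchymal transition (EMT), in which keratins, junction proteins and secretory products are known to give way to matrix, actin and motility genes. The comparison asks whether cells that still hold AGR2 mRNA also hold more of other epithelial mRNAs and less of the mesenchymal ones. AGR2 chose the classes, so it was left out of every test between them.

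The AGR2-positive share is a description of the rule. It was 57.9% (95% exact binomial interval 50.3 to 65.2) in 12 h replicate 1, 61.5% (54.2 to 68.4) in 12 h replicate 2, 46.0% (38.8 to 53.4) in 24 h replicate 1 and 48.6% (40.1 to 57.1) in 24 h replicate 2, with a mean of 53.5% ± 7.35 (SD, n = 4 libraries). All intervals here cover counting error only. At 0 h and 0.5 h the share was between 82.0% and 90.4%, and at 48 h and 96 h it was 1.55%, 0%, 0% and 1.59%, where 0 of 100 and 0 of 51 cells allow a share of up to 3% and 5.88% (3 counts of the total). AGR2 over all thinned cells ran from 335 to 421 CPM (counts of a gene scaled to a common library total) at 0 h and 0.5 h, from 99.0 to 169 CPM at 12 h and 24 h, and from 0 to 1.43 CPM at 48 h and 96 h. The 12 h and 24 h libraries thus lay between the early and the late ones, with no overlap in either direction.

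**Figure D1:**
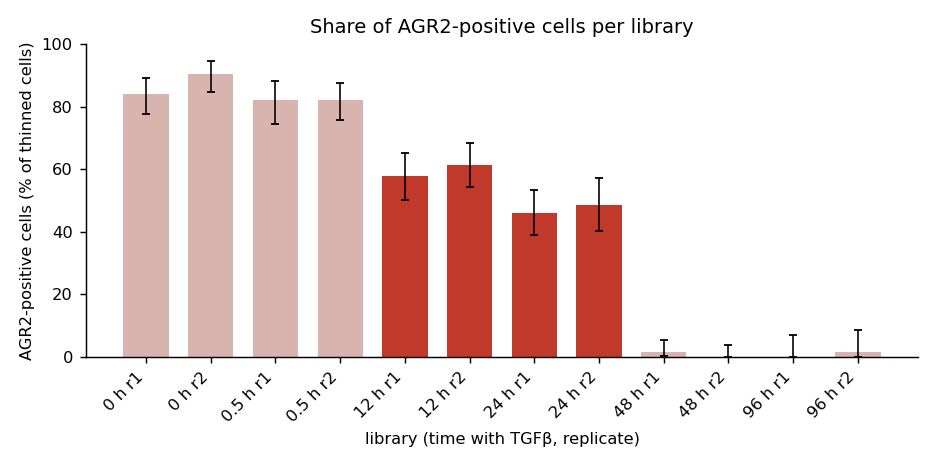
Share of AGR2-positive cells (% of cells thinned to 12500 UMIs, y axis) in each of the 12 libraries (x axis, time with TGFβ and replicate), with exact 95% binomial intervals as error bars and the 12 h and 24 h libraries in dark red. The 4 dark bars stand between 46.0% and 61.5%, below the 0 h and 0.5 h bars and above the 48 h and 96 h bars.

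The line between the classes was 1 molecule. Of the 377 AGR2-positive cells, 142 held 1 AGR2 UMI after thinning, 157 held 2 or 3 and 78 held at least 4. Of the 324 AGR2-negative cells, 88 (27.2%) had held an AGR2 UMI before thinning, so the negative class contains cells with a little AGR2. AGR2 UMIs were also present in 4.76%, 6.45%, 6.45% and 8.78% of the wells under 1000 genes in 12 h replicate 1, 12 h replicate 2, 24 h replicate 1 and 24 h replicate 2, at median depths of 827 to 1312 UMIs, against a depth of 12500 in the cells compared. Per 10000 UMIs these wells held 0.414 to 0.803 AGR2 UMIs, and the cells compared, both classes together, 0.885 to 1.51. The part of such free or carried-over RNA in the class of single cells was not tested.

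The classes were close in depth and quality. Median UMIs before thinning were 16854 to 25137 in AGR2-positive cells and 17933 to 25630.5 in AGR2-negative cells, lower in AGR2-positive cells in 4 of 4 libraries. The median mitochondrial share was 22.7% to 24.5% in AGR2-positive cells and 22.9% to 24.1% in AGR2-negative cells, and median genes per thinned cell were 3347 to 3443.5 and 3318.5 to 3459.5 in the same order. Both classes held the keratins of a simple epithelium: KRT8, KRT18, KRT19 and EPCAM together came to 2483 to 3231 CPM in AGR2-positive cells and 2125 to 2645 CPM in AGR2-negative cells, almost all of it KRT8 and KRT18, since KRT19 had 138 and EPCAM 35 UMIs in all. Immune markers (4 of 10 listed genes in the table, PTPRC and TYROBP at 0) summed to 0 to 2.28 CPM in AGR2-positive cells and 0 to 2.43 CPM in AGR2-negative cells. Endothelial markers (5 of 9 in the table, CDH5, TEK, EMCN and ERG at 0) summed to 0 to 0.759 and 0 CPM, and fibroblast markers (7 of 8 in the table, DCN, LUM and PDGFRB at 0) to 20.5 to 34.1 and 12.9 to 39.2 CPM. All 384 well barcodes were shared by the replicate 1 libraries and none by a replicate 1 and a replicate 2 library.

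UMIs of each class were summed per library, 754770 to 1291978 over nuclear and mitochondrial protein-coding genes, and the 8 sums were compared with edgeR's quasi-likelihood test with the library as a term. A gene was called when its Benjamini-Hochberg adjusted p over all tested genes was under 0.05, and changes are log2 ratios of AGR2-positive over AGR2-negative cells with their SE. Of 7209 genes tested, 76 were called (1.05%), 51 higher (0.707%) and 25 lower (0.347%) in AGR2-positive cells, and 653 had an unadjusted p under 0.05. Most of these changes were small. The median was 0.35 among the genes called higher and -0.36 among those called lower, 21 of the 76 changed by at least 1.5-fold, and the median over all tested genes was 0.00. In 65 of the 76 the direction was the same in all 4 libraries (15.4% of all tested genes), and in 26 the 4 sums of the classes did not overlap (2.32% of all tested genes).

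How many genes are called depends on the test and on the libraries. The spread left between the sums after the library term was close to counting error (biological coefficient of variation 0.0393), and the test borrowed that spread across genes. A gene's own spread over the 4 libraries had little weight (3 residual degrees of freedom, against a median of 4906 borrowed ones). DESeq2 called 11 genes, all higher, and edgeR without the library term called 6. The 6 were CEACAM6, FGB, CCDC80, DKK1, FN1 and SYT13, and DESeq2 called CEACAM6, FN1, CCDC80, ALDH1A1, TGM2, DKK1, KRT8, AKR1C3, SYT13, AKR1B10 and ALDH3A1. Without 12 h replicate 1, 12 h replicate 2, 24 h replicate 1 or 24 h replicate 2 the test called 39, 43, 80 or 35 genes. Of the 53 called genes that the naming rule picked, 17 kept their call without each of the 4 libraries in turn. These were CEACAM6, FGB, SLPI, FGL1, TM4SF4, DKK1, CCDC80, ABCC3, KRT8, JUP, FN1, TGM2, ALDH3A1, ALDH1A1, AKR1C3 and AKR1B10, all higher, and PHGDH, lower.

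Secretory and surface products led the genes higher in AGR2-positive cells. CEACAM6, a glycosylphosphatidylinositol-anchored adhesion glycoprotein of mucosal epithelia, had 96.0, 127, 86.2 and 72.9 CPM in AGR2-positive cells of 12 h replicate 1, 12 h replicate 2, 24 h replicate 1 and 24 h replicate 2, against 27.4, 21.4, 30.5 and 31.4 CPM in AGR2-negative cells. The lowest positive sum was more than 2 times the highest negative one. The change was 1.78 ± 0.16, or 3.44-fold (adjusted p = 1.10e-25), with means of 95.6 ± 23.1 CPM in AGR2-positive and 27.7 ± 4.49 CPM in AGR2-negative cells (SD, n = 4 each). A CEACAM6 UMI was found in 20.3% to 26.2% of AGR2-positive cells and 12.2% to 14.7% of AGR2-negative cells, so most cells of both classes had none at this depth. The call was lost without thinning (2.10, adjusted p = 0.127) and in cells at or under the median summed level of G2/M (late cell cycle) genes (1.14, adjusted p = 0.0707). Its UMIs were concentrated in few cells: the 5 highest cells held 49.5% to 75.9% of them among AGR2-positive cells and 70.6% to 80.0% among AGR2-negative cells.

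SLPI, a secreted inhibitor of leukocyte proteases made by airway glands, had 91.6, 55.0, 59.9 and 54.0 CPM in AGR2-positive cells, in the same order of libraries, against 40.5, 40.5, 29.6 and 15.1 CPM in AGR2-negative cells. The groups did not overlap, and the change was 1.03 ± 0.17 (adjusted p = 3.78e-07). In sums of cells, more cells with a gene and more of its mRNA per cell cannot be told apart. For SLPI, cells with a UMI made up 46.6%, 26.3%, 33.3% and 33.3% of AGR2-positive cells and 30.7%, 23.0%, 20.6% and 13.7% of AGR2-negative cells. The ion cotransporter SLC12A2 (0.52 ± 0.11, adjusted p = 0.000275) and the glutathione peroxidase GPX2 (0.44 ± 0.10, adjusted p = 0.00126) were also higher. Of the 54 listed secretory epithelial products 8 passed the filter on low counts. Among these 4 (50%, against 0.707% of all tested genes) were called higher and 0 lower, and the median change of the 8 was 0.31. The 4 were CEACAM6, SLPI, SLC12A2 and GPX2, so the list is not one of secreted proteins alone. The call on GPX2 needed all libraries but 24 h replicate 1, and that on SLC12A2 was lost without 12 h replicate 2.

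Several liver-type secreted proteins, which A549 cells are known to make, were higher as well. FGB, the beta chain of fibrinogen, had 41.4, 34.96, 41.0 and 27.0 CPM in AGR2-positive cells against 13.1, 15.5, 10.8 and 11.3 CPM in AGR2-negative cells. Every AGR2-positive sum was above every AGR2-negative one, and the change was 1.52 ± 0.24, or 2.87-fold (adjusted p = 1.61e-07). FGL1, a fibrinogen-like protein secreted by hepatocytes, had 96.9, 70.7, 79.9 and 62.1 CPM against 55.9, 50.04, 50.3 and 21.3 CPM. The groups again stood apart, with a change of 0.78 ± 0.15 (adjusted p = 4.44e-05). At 6250 UMIs per cell FGB (0.78, adjusted p = 0.464) and SLPI (0.72, adjusted p = 0.0984) did not pass.

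The membrane protein TM4SF4 (0.48 ± 0.10, adjusted p = 0.000302) and the retinol carrier RBP4 (1.001 ± 0.27, adjusted p = 0.028) were higher in 4 of 4 libraries. RBP4 was near the filter, with 9.45 to 31.7 CPM in AGR2-positive cells and 8.78 to 16.7 CPM in AGR2-negative cells, and lost its call without 12 h replicate 2 or 24 h replicate 1. Of the 50 genes listed as hepatic-type products, not all of them secreted, 14 were tested, with a median of 0.51. Among these 4 (28.6%, against 0.707% of all tested genes) were called higher and 0 lower. The alpha chain FGA was too low to test, with 12, 18, 15 and 6 UMIs in AGR2-positive cells and 5, 5, 2 and 4 UMIs in AGR2-negative cells.

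**Figure D2:**
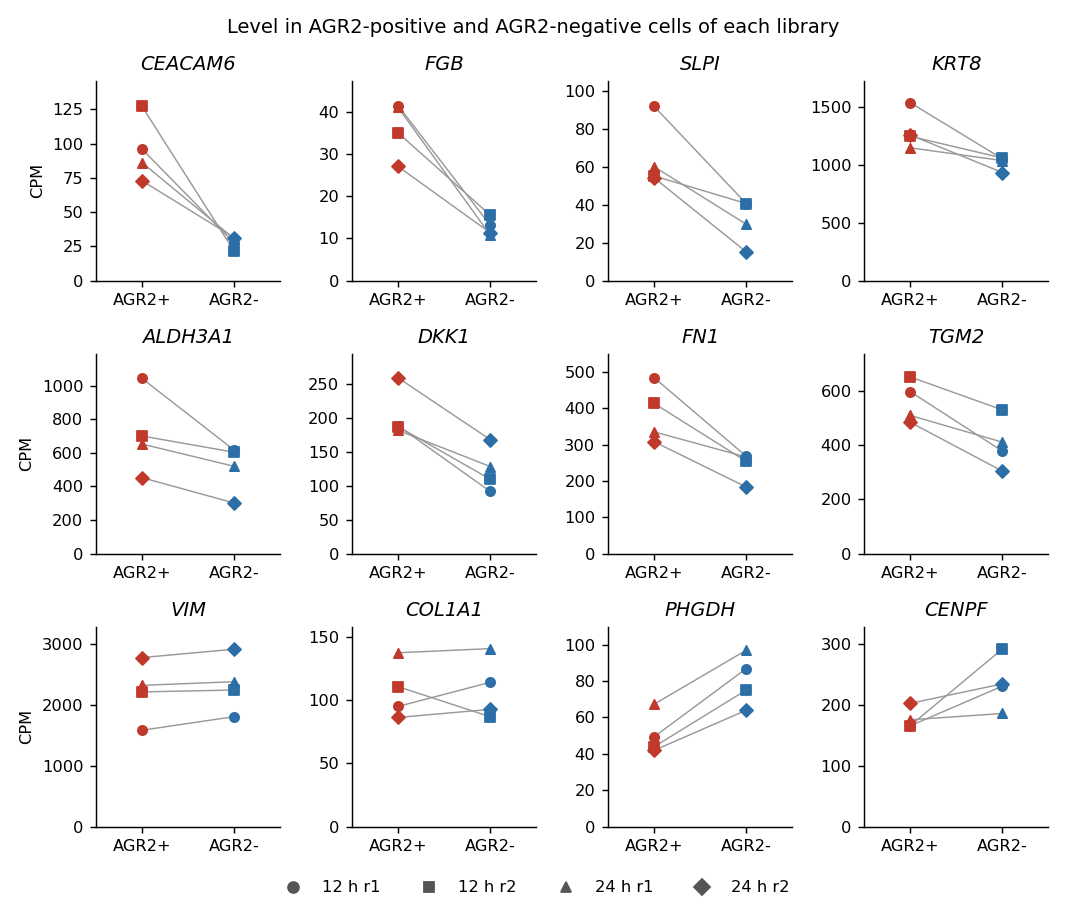
Level of 12 genes (CPM with scaling, y axis from 0) in the summed AGR2-positive (AGR2+, left, red) and AGR2-negative cells (AGR2-, right, blue) of the 12 h and 24 h libraries, each library a marker shape joined by a line. CEACAM6, FGB, SLPI, KRT8, DKK1 and FN1 lie higher in every AGR2-positive sum than in any AGR2-negative sum, VIM has nearly level lines, the lines of COL1A1 cross, and PHGDH and CENPF slope the other way.

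The promoters of genes on both sides of the comparison were read to show what sequence they start from. The 250 bases before the RefSeq start (GRCh38.p14, 5′ to 3′ on the gene's strand) are given for AGR2, for 2 genes higher in AGR2-positive cells, and also higher at 0 h and 0.5 h than at 48 h and 96 h (CEACAM6, FGB), for the matrix gene FN1 and for the mitotic gene CENPF, at chr7:16805000-16805249 (minus), chr19:41755280-41755529 (plus), chr4:154562730-154562979 (plus), chr2:215436069-215436318 (minus) and chr1:214602945-214603194 (plus). In GENCODE 44 AGR2 spans chr7:16791811-16833433 and CEACAM6 chr19:41750977-41772211, so both stretches lie inside the annotated gene, before the RefSeq start. Capitals mark matches to the motifs searched.
AGR2: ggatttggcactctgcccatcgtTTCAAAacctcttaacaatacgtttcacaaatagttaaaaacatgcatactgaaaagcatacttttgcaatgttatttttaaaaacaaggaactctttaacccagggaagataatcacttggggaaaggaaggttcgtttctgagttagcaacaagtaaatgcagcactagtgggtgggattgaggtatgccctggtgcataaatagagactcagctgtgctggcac
CEACAM6: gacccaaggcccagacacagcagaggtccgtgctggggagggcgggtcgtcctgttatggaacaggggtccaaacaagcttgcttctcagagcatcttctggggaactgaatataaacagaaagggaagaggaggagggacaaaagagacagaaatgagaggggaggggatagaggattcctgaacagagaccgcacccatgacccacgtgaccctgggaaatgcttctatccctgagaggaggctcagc
FGB: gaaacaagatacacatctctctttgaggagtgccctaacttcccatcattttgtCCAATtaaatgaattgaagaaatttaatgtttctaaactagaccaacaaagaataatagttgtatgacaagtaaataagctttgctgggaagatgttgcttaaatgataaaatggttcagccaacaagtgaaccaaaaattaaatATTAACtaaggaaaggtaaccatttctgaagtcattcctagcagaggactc
FN1: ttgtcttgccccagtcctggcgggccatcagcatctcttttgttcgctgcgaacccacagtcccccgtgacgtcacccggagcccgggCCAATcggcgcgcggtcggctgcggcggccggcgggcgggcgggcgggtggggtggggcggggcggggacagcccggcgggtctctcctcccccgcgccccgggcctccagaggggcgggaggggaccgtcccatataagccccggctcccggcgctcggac
CENPF: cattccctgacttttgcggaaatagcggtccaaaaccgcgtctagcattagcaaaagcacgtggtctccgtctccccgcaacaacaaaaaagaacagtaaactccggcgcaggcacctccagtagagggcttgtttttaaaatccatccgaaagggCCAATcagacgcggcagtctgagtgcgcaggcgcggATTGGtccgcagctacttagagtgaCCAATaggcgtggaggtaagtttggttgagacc
The AGR2 stretch held the letters TTCAAA at position -227 from the start, FGB held ATTAAC at -51 and CCAAT at -196, FN1 held CCAAT at -162, CENPF held CCAAT at -94 and -33 and its reverse complement ATTGG at -58, and CEACAM6 held none of the motifs.

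Over the window of 250 bases before and 50 after the start, on both strands, 38 of the 51 genes called higher, 21 of the 25 called lower and 5946 tested genes had a promoter entry. The cell cycle homology element TTTGAA was found in 7 of 38 (18.4%) of the higher genes and 6 of 21 (28.6%) of the lower genes, against 9.47% of tested genes and 15.4% of all 27305 entries. Its 6 carriers among the lower genes were BUB1B, CENPA, CENPF, CKS2, KPNA2 and MKI67. The letters GTTAAT, part of the site of the hepatic factor HNF1, were found in 4 of 38 (10.5%; FGB, GPX2, MMP7 and TM4SF4) and 0 of 21, against 3.25% of tested genes and 6.89% of all entries. CCAAT was found in 39.5% and 52.4%, against 37.4% and 35.7%, and the antioxidant response letters TGACNNNGC in 15.8% and 19.0%, against 15.7% and 13.6%. The letters TGANTCA of AP-1, TGTTTAC and the variant TGTTTGC of forkhead factors, and TTTCGCGC of E2F were each found in at most 2 promoters of either group. The letters of TGACNNNGC and TGANTCA can share bases, and such matches describe letters, not binding.

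Some keratins were higher in AGR2-positive cells, while most junction genes did not pass the test. KRT8, a keratin of simple epithelia, had 1541, 1249.5, 1149.8 and 1261 CPM in AGR2-positive cells against 1054, 1062, 1039 and 936 CPM in AGR2-negative cells, without overlap and with every cell of both classes holding a UMI. The change was 0.34 ± 0.04 (adjusted p = 5.56e-12). Its partner KRT18 had 1529, 1766, 1404 and 2066 CPM against 1079, 1518, 1287 and 1266 CPM, higher in 4 of 4 libraries, but it did not pass at an adjusted p of 0.0912, with a change of 0.38 ± 0.08. KRT19 (0.88 ± 0.27, adjusted p = 0.0921) did not pass either. KRT4, a keratin of mucosal linings, had 25.5, 43.1, 26.3 and 17.6 CPM against 23.8, 21.4, 7.18 and 5.02 CPM, and 0.98 ± 0.25 (adjusted p = 0.012), a call lost without 12 h replicate 2, 24 h replicate 1 or 24 h replicate 2.

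Of 19 tested genes listed as keratins and epithelial surface (34 listed), 3 were called higher (15.8%, against 0.707% of all tested genes). Among them were KRT8 and the hair-type keratin KRT81 (0.15 ± 0.03, adjusted p = 0.0013). None was called lower, 18 of the 19 changes were above 0 and the median was 0.15. Of 16 tested junction genes 1 was called higher (6.25%, against 0.707% of all tested genes). This was JUP, the plakoglobin of desmosomes and adherens junctions, with 495, 458, 383 and 219 CPM in AGR2-positive cells against 336, 303, 268 and 226 CPM in AGR2-negative cells. It was higher in 3 of 4 libraries and level in 24 h replicate 2, with a change of 0.46 ± 0.07 (adjusted p = 1.01e-08). The median of the 16 was 0.07. CDH1, the epithelial cadherin, was too low to test, with 15, 14, 8 and 2 UMIs in AGR2-positive cells and 4, 4, 8 and 1 UMIs in AGR2-negative cells. EPCAM had 3, 6, 2 and 3 UMIs against 14, 4, 3 and 0. The claudin CLDN4 had a change of 0.20 ± 0.25 (adjusted p = 0.918).

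Among 16 tested epithelial transcription factors edgeR called 0 higher (3 at an unadjusted p under 0.05) and 1 lower (6.25%, against 0.347% of all tested genes). The 1 was CEBPB (-0.35 ± 0.09, adjusted p = 0.0152), which is a factor of acute-phase and stress genes and lost its call without any 1 of the libraries. FOXA1, a pioneer factor of lung and liver genes, changed by 0.65 ± 0.25 (adjusted p = 0.294) and FOXA2 by -0.41 ± 0.20 (adjusted p = 0.489). AGR3, the neighbour and paralog of AGR2, had 0 UMIs in all 8 sums, and SPDEF, a factor of goblet cells, was too low to test. The 50 tested secretory pathway genes (transport between endoplasmic reticulum, Golgi and surface) had 0 calls in edgeR or DESeq2 (6 higher and 2 lower unadjusted) with a median of 0.06. Of the 31 tested genes of the endoplasmic reticulum and unfolded protein response 1 was called lower (3.23%, against 0.347% of all tested genes). It was ATF4, which is described with the lower genes. The factor XBP1 (0.18 ± 0.13, adjusted p = 0.774) and the chaperone HSPA5 (-0.14 ± 0.05, adjusted p = 0.233) of that list did not pass.

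Detoxifying enzymes of the NRF2 type, which are high in A549 cells, formed another group. Of 37 tested NRF2 targets and aldo-keto reductases 8 were called higher (21.6%, against 0.707% of all tested genes) and 0 lower. GPX2 is 1 of these 8 and was also counted among the secretory epithelial products. The median over all 37 was 0.04. ALDH3A1, an aldehyde dehydrogenase, had 1044, 701, 653 and 452 CPM in AGR2-positive cells against 616, 604, 519.8 and 301 CPM in AGR2-negative cells, higher in 4 of 4 libraries with sums that overlap across libraries. The change was 0.47 ± 0.05 (adjusted p = 4.84e-14). ALDH1A1, which makes retinoic acid from retinal, had 5816, 5793, 5940.1 and 6012 CPM against 5059.9, 4985, 5415 and 4906 CPM, a small step of 0.21 ± 0.03 (adjusted p = 5.42e-10) in which the groups did not overlap. The aldo-keto reductases AKR1C3 (0.28 ± 0.04, adjusted p = 2.55e-10) and AKR1B10 (0.23 ± 0.03, adjusted p = 5.19e-08) were higher in 4 of 4 libraries. ABCC3, an exporter of glucuronide conjugates, had 137, 136, 121 and 98.6 CPM against 70.2, 91.7, 85.3 and 61.5 CPM, without overlap, and 0.67 ± 0.12 (adjusted p = 4.22e-06).

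Mesenchymal genes were not lower as a group in AGR2-positive cells. Of 49 listed mesenchymal genes 23 were tested. Among these 4 were called higher (17.4%, against 0.707% of all tested genes) and 1 lower (4.35%, against 0.347%). The median was 0.10. FN1, fibronectin, a matrix glycoprotein and common marker of EMT, had 485, 414, 335 and 308 CPM in AGR2-positive cells against 268, 254, 266 and 183 CPM in AGR2-negative cells. Every AGR2-positive sum was above every AGR2-negative one. The change was 0.66 ± 0.07, or 1.58-fold (adjusted p = 3.55e-17), with means of 385 ± 79.9 CPM in AGR2-positive and 243 ± 40.1 CPM in AGR2-negative cells (SD, n = 4 each). An FN1 UMI was found in 79.7% to 93.2% of AGR2-positive cells and 74.7% to 81.1% of AGR2-negative cells.

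TGM2, the tissue transglutaminase that crosslinks matrix, had 596, 651, 509 and 483 CPM against 377, 529, 410.3 and 304 CPM, higher in each library although the ranges overlap across libraries. Its change was 0.46 ± 0.06 (adjusted p = 4.92e-12). S100A6 (0.15 ± 0.03, adjusted p = 0.000781) and SERPINE2, a secreted protease inhibitor (chosen after its values were seen, 0.22), were the other 2 called higher. AXL, a receptor tyrosine kinase, was the 1 called lower, with 144, 156, 209 and 232 CPM in AGR2-positive cells against 214, 220.4, 186 and 317 CPM in AGR2-negative cells. It was lower in 3 libraries and higher in 24 h replicate 1, and the call (-0.33 ± 0.08, adjusted p = 0.00978) was lost without any 1 of the other 3 libraries. The listed genes did not all rise with TGFβ in these cells. TGM2 and SERPINE2 were at least 2-fold higher at 48 h and 96 h than at 0 h and 0.5 h. S100A6 and AXL were at least 2-fold lower.

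The intermediate filament VIM had 1579, 2208, 2315 and 2771 CPM in AGR2-positive cells against 1802, 2239, 2375 and 2908 CPM in AGR2-negative cells. It was lower in 4 of 4 libraries by a small step of -0.08 ± 0.04 that did not pass (adjusted p = 0.464). COL1A1, the alpha 1 chain of type I collagen, had 95.1, 111, 138 and 86.4 CPM against 114, 87.0, 141 and 92.8 CPM and -0.01 ± 0.11 (adjusted p = 0.995). COL1A1 was lower in 3 of 4 libraries, and its SE of 0.11 makes the difference less certain than that of VIM.

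The cadherin CDH2 (0.13 ± 0.20, adjusted p = 0.934) and the EMT factors SNAI1 (-0.22 ± 0.25, adjusted p = 0.903) and ZEB1 (0.08 ± 0.21, adjusted p = 0.969) had wide errors and did not pass. Among 36 tested TGFβ and SMAD targets edgeR and DESeq2 called 0 either way (4 higher and 2 lower unadjusted), with a median of 0.04. PMEPA1, a feedback inhibitor of SMAD signalling, came nearest with 0.15 ± 0.04 (adjusted p = 0.0592), higher in 4 of 4 libraries. TGFBI (0.08 ± 0.03, adjusted p = 0.426) and the inhibitory SMAD7 (0.02 ± 0.21, adjusted p = 0.995) did not pass.

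Of 33 tested collagens and matrix genes 2 were called higher (6.06%, against 0.707% of all tested genes) and 0 lower. The median was 0.08, and the 2 were the type V collagen COL5A2 (0.40 ± 0.10, adjusted p = 0.00513) and the matricellular CCN2 (0.27 ± 0.07, adjusted p = 0.011). The call on COL5A2 held without 24 h replicate 2 but not without another library, and that on CCN2 was lost if 12 h replicate 2 or 24 h replicate 2 was left out. CCDC80, a secreted matrix-binding protein, had 307, 308, 389 and 393 CPM in AGR2-positive cells against 213, 156, 231 and 283 CPM in AGR2-negative cells, without overlap, with 0.68 ± 0.07 (adjusted p = 6.51e-17). DKK1, a secreted antagonist of Wnt signalling, had 189, 187, 182 and 259 CPM against 91.6, 109.6, 128 and 168 CPM, also without overlap, with 0.72 ± 0.09 (adjusted p = 7.25e-12). The phospholipase PLA2G4A, which frees arachidonic acid, changed by 1.04 ± 0.27 (adjusted p = 0.0163) from low counts and lost its call without 12 h replicate 2, 24 h replicate 1 or 24 h replicate 2.

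A wider list of genes that change with TGFβ came from libraries the classes did not use. Summed 48 h and 96 h libraries against 0 h and 0.5 h libraries gave 697 genes at least 2-fold higher (7.19% of 9697 tested) and 473 at least 2-fold lower (4.88%). Of the 473 genes that fall with time, 270 were tested between the classes, 22 were called higher in AGR2-positive cells (8.15%, against 0.707% of all tested genes) and 1 lower (0.370%, against 0.347%), with a median of 0.05. Their summed level was higher in AGR2-positive cells of every library, with 38591, 40095, 33936 and 35582 CPM, against 34353, 37240, 32610 and 30569 CPM in AGR2-negative cells. Of the 697 genes that rise with time, 395 were tested, 8 were called higher (2.03%) and 2 lower (0.506%), with a median of 0.04. Their summed level was also slightly higher in AGR2-positive cells of every library, with 51507, 53144, 53958 and 52267 CPM, against 49956, 50679, 52276 and 52071 CPM. Without 12 h replicate 1, 12 h replicate 2, 24 h replicate 1 or 24 h replicate 2, 17, 19, 24 or 18 falling genes and 5, 5, 9 or 5 rising genes were called higher.

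**Figure D3:**
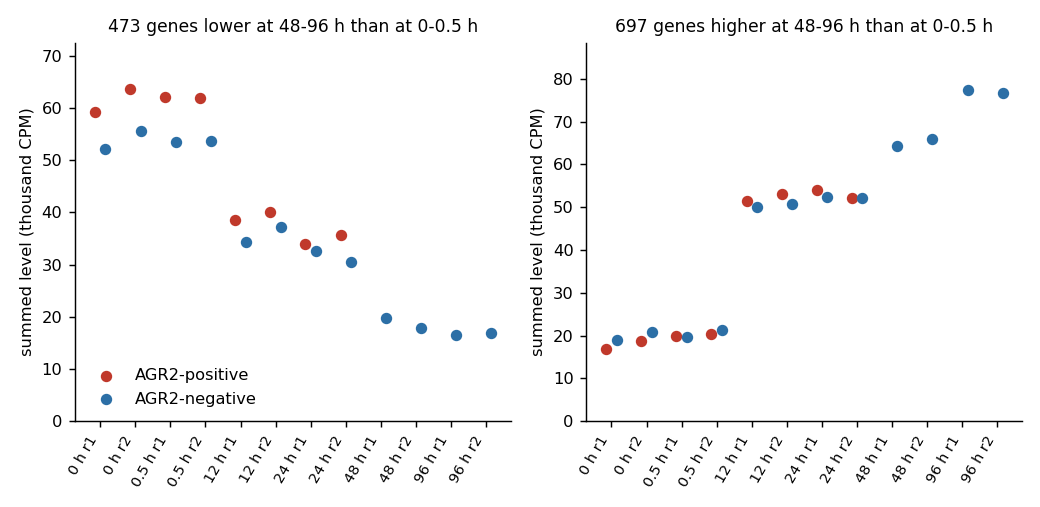
Summed level (units of 1000 CPM without scaling, y axis from 0) of the 473 genes lower and the 697 genes higher at 48 h and 96 h than at 0 h and 0.5 h, in AGR2-positive (red, left of each pair) and AGR2-negative cells (blue, right) of each library with at least 10 cells in the class (x axis). In the falling genes the red points lie above the blue ones in every library that has both, and in the rising genes the 12 h and 24 h pairs nearly coincide.

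The largest group of genes lower in AGR2-positive cells were those of mitosis. Of 53 tested G2/M genes 10 were called lower (18.9%, against 0.347% of all tested genes) and 0 higher. The median was -0.26, and 50 of the 53 changes were below 0, against 3605 of all 7209 tested genes. CENPF, a kinetochore protein of dividing cells, had 166, 166, 176 and 203 CPM in AGR2-positive cells against 231, 292, 186 and 235 CPM in AGR2-negative cells, with -0.42 ± 0.08 (adjusted p = 0.000132). The centromeric histone CENPA had 36.1, 37.2, 30.5 and 28.4 CPM against 71.4, 73.9, 26.9 and 66.5 CPM, with -0.82 ± 0.17 (adjusted p = 0.000327). CENPA was lower in 3 libraries and not in 24 h replicate 1.

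The proliferation antigen MKI67 (-0.32 ± 0.09, adjusted p = 0.0436), the spindle factor TPX2 (-0.40 ± 0.11, adjusted p = 0.027), the checkpoint kinase BUB1B (-0.78 ± 0.22, adjusted p = 0.034), KPNA2 (-0.25 ± 0.06, adjusted p = 0.00188) and CKS2 (-0.30 ± 0.07, adjusted p = 0.00671) were also called lower. The 24 h replicate 1 library went the other way. The summed G2/M list came to 6900, 6947, 7441 and 7168 CPM in AGR2-positive cells and 8711, 8569, 6808 and 8699 CPM in AGR2-negative cells. Without 24 h replicate 1 there were 18 G2/M calls, and without 12 h replicate 1, 12 h replicate 2 or 24 h replicate 2 there were 1, 0 and 1. The 50 tested G1/S genes had 0 calls in edgeR or DESeq2 (1 higher and 3 lower unadjusted) with a median of -0.06. The mitotic genes moved with the class in 3 of 4 libraries, and median G2/M UMIs per cell were 63, 62.5, 75 and 59 in AGR2-positive cells and 86, 78, 67.5 and 81 in AGR2-negative cells. In cells at or under the median G2/M sum 18 genes were called, 16 of them among the 76. Of the named genes called in all cells 47 could be tested there and 15 kept their call, FN1, FGB, DKK1 and KRT8 among them.

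Outside mitosis, PHGDH and ATF4 were among the lower genes. PHGDH, the first enzyme of serine synthesis, had 49.3, 43.9, 67.3 and 41.9 CPM in AGR2-positive cells against 86.9, 75.1, 97.0 and 64.0 CPM in AGR2-negative cells, lower in 4 of 4 libraries. The change was -0.68 ± 0.14 (adjusted p = 0.000419). ATF4, the factor of the integrated stress response that is known to drive serine synthesis genes, had 179.7, 176, 133 and 149.9 CPM against 195, 256, 163 and 207 CPM, lower in each library, with -0.36 ± 0.09 (adjusted p = 0.00627). Its call was lost without 12 h replicate 2 or 24 h replicate 2. Chosen after their values were seen, PSAT1, the next enzyme of serine synthesis, changed by -0.27 ± 0.06 (adjusted p = 0.00122) and MTHFD2, a mitochondrial folate enzyme, by -0.32 ± 0.08 (adjusted p = 0.00439).

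NPTX1, a secreted pentraxin known from synapses, had 4.41, 11.9, 11.6 and 16.2 CPM in AGR2-positive cells against 10.7, 14.3, 35.02 and 55.2 CPM in AGR2-negative cells. It was lower in each library and by more at 24 h (-1.68) than at 12 h (-0.60), a difference between the times that did not pass (adjusted p = 0.969). The change was -1.29 ± 0.27 (adjusted p = 0.000384), and the call was lost without 24 h replicate 2. NPTX1 is 1 of the 2 late-rising genes called lower. BCL2A1, a survival factor of the BCL2 family, was the other, with 22.9, 32.7, 32.6 and 35.1 CPM against 48.8, 47.7, 47.6 and 47.7 CPM. Its groups did not overlap (-0.65 ± 0.18, adjusted p = 0.039), but the call was lost without any 1 of the libraries, as were those on ANKS6 (-0.85 ± 0.24) and DESI1 (-0.70 ± 0.20).

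Ribosomal, respiratory chain, actin, immediate early and S100 genes moved by small amounts as lists. Of 77 tested ribosomal protein genes 3 were called lower, RPL31 (-0.15 ± 0.03), RPL37A (-0.16 ± 0.04) and RPS7 (-0.14 ± 0.03), with a median of -0.05, and the summed list was lower in AGR2-positive cells of every library (95539, 107860, 105632 and 124468 CPM, against 99840, 111525, 109911 and 128817 CPM). Of 71 tested nuclear genes of the respiratory chain 1 was called higher (1.41%, against 0.707% of all tested genes), COX7C (0.20 ± 0.05). The median was 0.09. Of 40 tested actin and focal adhesion genes 4 were called higher (10%, against 0.707% of all tested genes), with a median of 0.02 over the 40. These were the LIM protein PDLIM5 (0.32 ± 0.06), ACTB (0.13 ± 0.03), TPM4 (0.18 ± 0.04) and TMSB4X (0.14 ± 0.03). Of 27 tested immediate early genes 2 were called higher (7.41%, against 0.707% of all tested genes), FOS (0.47 ± 0.13) and ZFP36L2 (0.96 ± 0.26). The median of the 27 was 0.08. FOS lost its call without any 1 of the libraries, and ZFP36L2 without 12 h replicate 1, 12 h replicate 2 or 24 h replicate 1. Of 16 S100 and annexin genes 2 were called higher, S100A6 and S100A10 (0.19 ± 0.04), with a median of 0.13. The small heat shock protein HSPB1 was higher by 0.15 ± 0.03.

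The number of AGR2 UMIs in a cell gave a finer order than the 2 classes. CPM were computed per library in cells with 0, 1, 2 or 3, and at least 4 AGR2 UMIs. For CEACAM6 the means over 4 libraries were 27.2 ± 3.87, 42.3 ± 38.1, 86.8 ± 42.0 and 183 ± 120 CPM (SD) in that order. The libraries differed in where the rise lay. Cells just inside the line (1 UMI) had 10.6, 51.01, 92.6 and 14.9 CPM in the 12 h and then the 24 h libraries, and cells just outside it (0 UMIs) had 26.9, 21.8, 29.3 and 30.6 CPM, so that 2 libraries were higher at 1 UMI and 2 lower. The means for FGB were 12.504, 25.3, 39.0 and 48.6 CPM, those for SLPI 31.1, 36.9, 71.8 and 106 CPM and those for KRT8 1007, 1123, 1318 and 1395 CPM. FN1 had 239, 349, 421 and 358 CPM, with its highest mean at 2 or 3 UMIs.

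On the lower side PHGDH had 79.4, 52.0, 50.6 and 44.7 CPM, with its step between 0 and 1 UMI, and CENPF had 233, 202, 158 and 150 CPM. VIM had 2293, 2186, 2196 and 2112 CPM. The bins with 0 and with 1 or more UMIs repeat the comparison that made the calls. The order above 1 UMI was not set by the line between the classes. The genes were still called from sums that hold these same cells, so the counts that follow are descriptions and not separate support. Of the 51 genes called higher 42 were higher at 4 or more UMIs than at 1 (48.2% of all tested genes), and of the 25 called lower 23 were lower (51.8% of all tested genes). The mean rose over all 4 bins in 33 of the 51 (5.37% of all tested genes) and fell over all 4 in 13 of the 25 (6.17%), counts that include the step from 0 to 1 UMI.

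**Figure D4:**
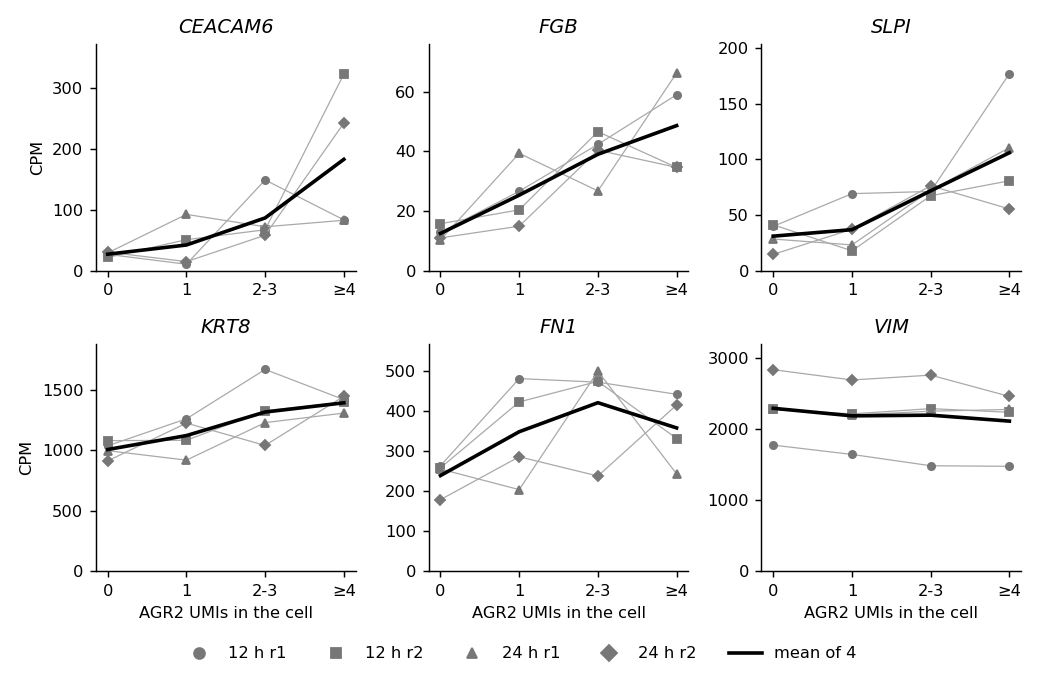
Level (CPM, y axis from 0) of 6 genes in cells with 0, 1, 2 to 3 or at least 4 AGR2 UMIs after thinning (x axis), each library a grey marker and line and the mean of the 4 libraries in black. The means of CEACAM6, FGB, SLPI and KRT8 climb over the bins, that of FN1 is highest at 2 to 3 UMIs, and that of VIM ends slightly lower than it starts.

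Classes further apart in AGR2 changed the calls unevenly between lists. Of the keratin and epithelial surface genes, 5 of 19 tested were called higher with at least 2 AGR2 UMIs and 2 of 16 with at least 4. Junction genes had 1 call higher at either limit (6.67% of 15 and 8.33% of 12 tested), and secretory epithelial products had 4 of 8 (50%). With at least 2 UMIs 15 of 53 tested G2/M genes were called lower (28.3%, against 0.596% of all tested genes). With at least 2 AGR2 UMIs against 0, 115 of 6878 tested genes were called (1.67%), 74 higher (1.08%) and 41 lower (0.596%). KRT18 then passed at 0.49 ± 0.04 (adjusted p = 1.11e-21), as did KRT19 at 1.11 ± 0.30. Of 250 tested falling genes 32 were called higher (12.8%) and 2 lower (0.800%), and of 369 tested rising genes 9 were called higher (2.44%) and 2 lower (0.542%). PMEPA1 stood at 0.17 ± 0.05 (adjusted p = 0.0481). With at least 4 UMIs, 71 of 5937 tested genes were called (1.2%), 53 higher (0.893%) and 18 lower (0.303%). They included 27 of 210 tested falling genes higher (12.9%).

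Before the TGFβ response the same division of cells was already marked by some of these genes. At 0 h and 0.5 h the AGR2-negative class was small (28, 15, 23 and 32 cells in 0 h replicates 1 and 2 and 0.5 h replicates 1 and 2), and 34 of 6655 tested genes were called (0.511%), 24 higher (0.361%) and 10 lower (0.150%). Of the 76 genes called at 12 h and 24 h, 71 could be tested at 0 h and 0.5 h, from other libraries. The direction was shared by 38 of the 48 higher and 22 of the 23 lower genes. The rate of shared direction over all genes tested in both periods is not given here, so these counts are descriptions. Of the 71 genes 16 were called in both periods in the same direction and 0 in opposite directions. CEACAM6 had 192, 140, 129 and 145 CPM in AGR2-positive cells, against 13.4, 30.7, 62.5 and 8.67 CPM in AGR2-negative cells of these libraries (2.53 ± 0.27, adjusted p = 1.76e-07). FN1 had 217, 214, 156 and 217 CPM against 111, 147, 62.5 and 182 CPM (0.66 ± 0.14, adjusted p = 0.00408). SLPI (1.31 ± 0.28, adjusted p = 0.00744), FGL1 (1.39 ± 0.25, adjusted p = 0.000636), KRT4 (2.34 ± 0.38, adjusted p = 0.000115), KRT8 (0.40 ± 0.06, adjusted p = 1.48e-05) and ALDH3A1 (0.68 ± 0.06, adjusted p = 3.64e-11) were higher in AGR2-positive cells in this period as well, whereas DKK1 (0.27 ± 0.09, adjusted p = 0.236) did not pass. The fibrinogen chain FGA passed in this period (2.92 ± 0.51, adjusted p = 0.000384), with 38.8, 38.6, 23.1 and 21.6 CPM in AGR2-positive cells against 3.36, 6.13, 0 and 5.78 CPM in AGR2-negative cells. FGB (0.41 ± 0.93, adjusted p = 0.982) did not pass, with 29.3, 26.6, 16.3 and 20.4 CPM in AGR2-positive cells against 0, 0, 0 and 54.9 CPM in AGR2-negative cells, where 0.5 h replicate 2 alone set the AGR2-negative level.

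**Figure D5:**
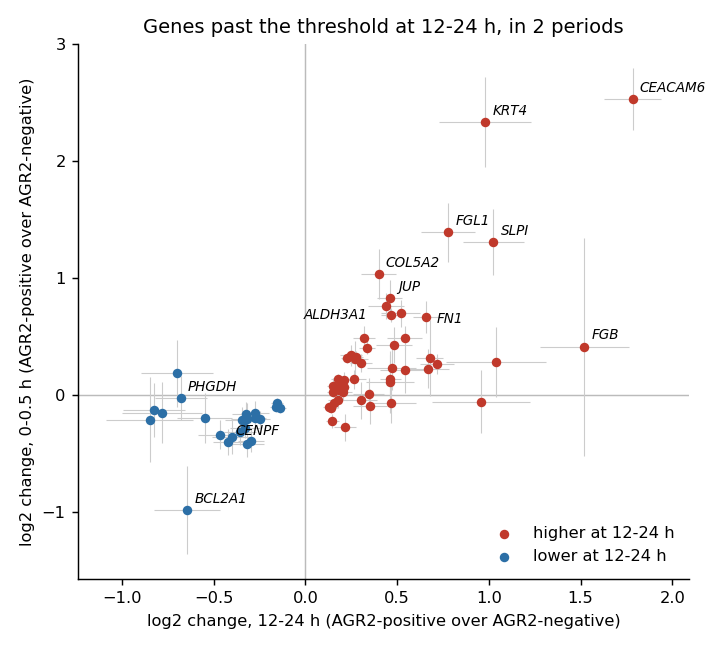
Log2 change of AGR2-positive over AGR2-negative cells at 12 h and 24 h (x axis) and at 0 h and 0.5 h (y axis) for the 71 genes called at 12 h and 24 h and tested in both periods, with bars of 1 SE, red for higher and blue for lower at 12 h and 24 h. Most red points lie above 0 on both axes, with CEACAM6 and KRT4 farthest up, and 22 of the 23 blue points lie below 0 on the y axis.

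The class effect on some genes induced by TGFβ differed between the periods. PMEPA1 had 74.5, 89.8, 81.3 and 81.1 CPM in AGR2-positive cells at 0 h and 0.5 h, against 128, 251, 113 and 182 CPM in AGR2-negative cells (-1.01 ± 0.15, adjusted p = 1.84e-05), and TGFBI was lower too (-0.41 ± 0.08, adjusted p = 0.000962). At 12 h and 24 h neither was lower. The difference of the class effects, tested as an interaction over all 8 libraries, passed for 8 of 7171 genes (0.112%), with PMEPA1 at 1.16 ± 0.15 (adjusted p = 1.06e-07) and TGFBI at 0.49 ± 0.08 (adjusted p = 0.000142). EPAS1, a hypoxia factor (0.43), the actin genes ACTB (0.23) and TMSB4X (0.25), IGFBP4 (0.37) and DUSP1 (0.43) had the same sign and ANKRD1, a YAP target, the opposite one (-1.41 ± 0.31, adjusted p = 0.0268). Between 12 h and 24 h the class effect differed in 1 of 7209 genes (0.0139%), the neuropeptide NTS (1.56 ± 0.26, adjusted p = 2.01e-05), at 0.72 at 12 h and -0.84 at 24 h.

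At 48 h and 96 h no library held 10 AGR2-positive thinned cells, so the comparison could not be fitted there. Of the genes that led the higher side, CEACAM6 and KRT4 had 0 UMIs in all thinned cells of these 4 libraries and SLPI had 1, while KRT8 still had 594 to 638 CPM, against 1049 to 1303 CPM in all thinned cells at 12 h and 24 h. FN1 had 170 to 295 CPM at 48 h and 96 h, 236 to 383 CPM at 12 h and 24 h and 137 to 211 CPM at 0 h and 0.5 h.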

How the data were processed

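CEL-Seq2 libraries of A549 cells at 6 times with TGFβ were used, each from 384 wells with a single sorted cell. The deposited table holds UMI counts per gene and well, without normalization by the authors. Per the labels reads were trimmed with Trim Galore 0.6.7, aligned to GRCh38 with HISAT2 2.2.1, assigned to genes with featureCounts 2.0.1 and collapsed with UMI-tools. For trimming and gene assignment the study's methods give other versions. For annotation and strand, the setting was not given in the sources used here. Antisense or overlapping genes are therefore uncertain. No value column was without a sample (0).

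Wells were kept at 100 to 40000 UMIs, 2000 to 7000 genes and at most 35% mitochondrial UMIs, 1871 of 4608. These limits come from the study's methods, where the stated number of cells differs slightly. Wells received 1 sorted cell, so doublets were not called. Cells with at least 12500 UMIs were thinned without replacement, which left out 94 of 795 at 12 h and 24 h. Protein-coding counts without AGR2 were summed per library and class, filtered (filterByExpr), scaled (TMM) and tested in R 4.3.3 with edgeR 4.0.16 (robust quasi-likelihood F test, library as a term, Benjamini-Hochberg adjusted p under 0.05, 3 residual degrees of freedom, median prior degrees of freedom 4906). Both sums of a pair come from the same library, which is where the pairing comes from. The SE was taken as the change over the root of its F value. Levels of single genes are TMM-scaled CPM except in the bins of AGR2 UMIs and over all thinned cells of a library, which are unscaled. Summed levels of lists and of cell type markers are unscaled as well. DESeq2 1.42.0 and limma 3.58.1 (voom) were alternatives. Promoters and gene names came from RefSeq and GENCODE 44. In simulated data for the 12 h and 24 h comparison (7013 genes), 19.6% of genes changed 1.25-fold, 47.7% changed 1.5-fold and 82.6% changed 2-fold were recovered, with 2 false among 101 calls. The simulation gave all genes 1 common spread and the same class change in every library. Its false share therefore does not carry over to the 76 calls in the real data.

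Named genes were the 10 highest and 10 lowest called changes with the same direction in 4 libraries and at least 20 CPM, a panel of 25 genes, and up to 4 called genes of lowest p per list (5 per direction for the other periods). The members, lists and rule were chosen with earlier results of these data known, so counts for lists are descriptions. Some genes that meet the rule were left out of the text.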

Additional observations from a re-analysis of the deposited data

Results flagged for a closer look

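Among the 71 named genes, 6 had 1 library whose log2 difference (AGR2-positive over AGR2-negative) lay far from the other 3, where chance alone gives about 1 in 20 groups of 4. BCL2A1 fell by 1.06 in 12 h replicate 1, against -0.53 to -0.43 in the others. JUP stood at -0.045 in 24 h replicate 2, against 0.51 to 0.60. AXL stood at 0.17 and KPNA2 at 0.022 in 24 h replicate 1, against -0.56 to -0.45 and -0.35 to -0.32. KRT81 stood at 0.077 and COX7C at 0.0065 in 12 h replicate 2, against 0.16 to 0.18 and 0.25 to 0.28.

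The class effect differed between 12 h and 24 h on one side and 0 h and 0.5 h on the other for 5 named genes, by an interaction test in edgeR with Benjamini-Hochberg adjustment. The differences were 1.16 for PMEPA1 (adjusted p = 1.06e-07), 0.49 for TGFBI (adjusted p = 0.000142), 0.43 for EPAS1 (adjusted p = 0.0159), 0.25 for TMSB4X (adjusted p = 0.0229) and 0.23 for ACTB (adjusted p = 0.0268), all toward higher values in AGR2-positive cells at 12 h and 24 h. The cause was not tested.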

How the results depend on the processing

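The count of 76 genes called at 12 h and 24 h came to 73 with other size factors, 60 without a filter, 57 without thinning, 55 with another thinning, 53 when thinned over nuclear UMIs, 71 with at least 4 AGR2 UMIs, 84 over all genes and 79 in limma-voom (71 shared). It moved by more than 1.5 times in the others: 11 in DESeq2 (110 unadjusted), 18 at 6250 UMIs per cell, 115 with at least 2 AGR2 UMIs, 49 in cells at or under the median mitochondrial share, 18 in those at or under the median G2/M sum, 2 against a 1.5-fold change, 37 at 12 h alone, 22 at 24 h alone, 29 in the shallower and 17 in the deeper cells. At stricter limits of 3000 genes and 20% mitochondrial UMIs, which left 3 to 13 cells per class and library, edgeR called 0 of 743 tested genes (20 unadjusted), as did DESeq2 (6 unadjusted) and limma-voom (25 unadjusted). Leaving out 1 library gave 35 to 80. At 0 h and 0.5 h the count of 34 came to 18 in DESeq2, 17 with another thinning and 20 to 38 with 1 library left out.

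Without the pairing of the 2 sums of a library (no library block) 6 genes were called at 12 h and 24 h and 9 at 0 h and 0.5 h. The AGR2-positive share of 53.5% became 38.7% at 6250 UMIs, 65.8% without thinning, 32.9% with at least 2 and 10.97% with at least 4 AGR2 UMIs.

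Changes of sign were few among named genes. DESI1 stood at 0.36 and ZFP36L2 at -0.012 at 6250 UMIs, DESI1 at 0.057 and ZFP36L2 at -0.064 when thinned over nuclear UMIs, TPX2 at 0.11 in cells at or under the median G2/M sum, and KRT8 at -0.18, CCN2 at -0.11, ALDH3A1 at -0.20, ALDH1A1 at -0.023 and AKR1B10 at -0.023 at the stricter limits. CEACAM6 was higher in every alternative in which it was tested (1.14 to 2.73). The cause was not tested.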

Other observations

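At higher AGR2 the listed hepatic-type products, not all of them secreted, went further apart. All genes named here were chosen after their values were seen. With at least 2 AGR2 UMIs against 0, 7 of 12 tested hepatic-type genes were called higher and 0 lower (against 1.08% and 0.596% of all tested genes), with a median of 0.81, among them FGG, the gamma chain of fibrinogen (1.55 ± 0.37), and CPS1, a urea cycle enzyme (0.95). With at least 4 UMIs FGG stood at 2.30 ± 0.51 and the calcium-binding S100P at 1.30 ± 0.27. In the same comparison of at least 2 UMIs against 0, the urokinase PLAU (-0.49), the caveolin CAV1 (-0.31) and the chemokine CCL2 (-0.32) were lower.

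Further genes called with at least 1 UMI were the matrix metalloprotease MMP7 (0.54 ± 0.09) and the synaptotagmin SYT13 (0.67) on the higher side, and DHDDS (-1.34), RACGAP1 (-0.55) and IGFBP3 (-0.47) on the lower side. DHDDS was under the 20 CPM of the naming rule, with means of 14.9, 6.27, 6.74 and 2.45 CPM at 0, 1, 2 or 3, and at least 4 AGR2 UMIs. It may have passed the filter on low counts only through AGR2-negative cells, so its call carries no weight. Among noncoding genes edgeR called 0 when all genes were tested.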
